A study of Homo sapiens with 27 samples.

Results

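The replication-dependent histone genes were followed gene by gene in the nuclear, cytoplasmic/ER and total RNA of U2OS cells, a human osteosarcoma line, after depletion of TPR, a protein of the nuclear basket on the inner face of the nuclear pore. The genes were taken by name. They were the protein-coding genes whose current symbol is H1-1 to H1-6 or opens with H2AC, H2BC, H3C or H4C and a digit. GENCODE release 44 holds 65 such genes, of which 32 had their ID in the deposited table, with 6 of 6 genes for H1, 8 of 16 for H2A, 10 of 17 for H2B, 4 of 13 for H3 and 4 of 13 for H4. H1-3 was listed at 0 in every library, which left 31 genes with a mean above 0 among the 34464 of the table. The other 33 histone genes were not analysed here. A mean above 1 FPKM over the 27 libraries (fragments scaled by transcript length and between libraries) was reached by 22 of the 31. They were 3 H1, 6 H2A, 7 H2B, 2 H3 and 4 H4 genes, tested among 14611 genes. The mean took in the TPR-depleted libraries, so a gene higher in these could pass the limit through them.

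Lentivirus brought in a control shRNA or either of a pair of shRNAs against TPR, named 'TPR A' and 'TPR D', and cells were taken after 5 days with puromycin selection, from 3 replicate cultures of each. All cultures were of the same line, and the controls had received virus and puromycin as well. Each culture gave a nuclear and a cytoplasmic/ER fraction, and a part of the cells was kept whole as the total fraction, so the 3 libraries of a replicate share a culture. The libraries were made from poly(A)+ RNA and quantified by the authors with Salmon. The study's methods call the replicates biological, with no detail on how the cultures were set up. The p-values of the main test rest on the spread within groups, pooled over all 27 libraries as if these were independent. Since 3 libraries share each culture, this is not the spread between cultures alone. With only the compared fraction in the model, no histone gene was called for both shRNAs together in any fraction.

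Replication-dependent histone genes make the bulk of the histones that package new DNA in S phase. H2A, H2B, H3 and H4 form the core of the nucleosome, and H1 binds the linker DNA between nucleosomes. The genes lie in clusters, nearly all lack introns, and their mRNAs end, unlike other mRNAs, not in a poly(A) tail but in a conserved stem-loop. The stem-loop is bound by SLBP, which serves in the 3′ end processing, export and translation of these mRNAs. Some of the genes also give longer, polyadenylated transcripts that run past the stem-loop. A poly(A)+ library therefore samples these mRNAs in part, and how much of each value came from tailed transcripts was not tested.

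All 31 genes carried the stem-loop within 22 to 57 nt after the stop codon of the annotated coding transcript. The stem-loops of 9 of them are shown because the values below turn on these genes. They are the most abundant member of each subfamily and members that passed the test. H1-1 is included since it was followed by microscopy in the study, and H2AC11 since its stem differed. Each sequence was read 5′ to 3′ from GRCh37 (hg19), the build of the authors' annotation. Capitals mark the 16 nt of the stem-loop and lower case the 5 nt on each side.
H1-1, minus strand, chr6:26017260-26017285: ccaacGGCTCTTTTAAGAGCCaccta
H1-2, minus strand, chr6:26055967-26055992: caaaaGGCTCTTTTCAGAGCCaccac
H1-4, plus strand, chr6:26157318-26157343: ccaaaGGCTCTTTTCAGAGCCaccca
H2AC11, plus strand, chr6:27101289-27101314: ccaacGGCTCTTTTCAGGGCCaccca
H2AC20, plus strand, chr1:149858936-149858961: ccaaaGGCTCTTTTTAGAGCCaccca
H2BC5, plus strand, chr6:26158810-26158835: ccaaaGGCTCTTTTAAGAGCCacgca
H2BC12, minus strand, chr6:27114140-27114165: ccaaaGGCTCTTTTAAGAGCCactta
H3C4, minus strand, chr6:26197012-26197037: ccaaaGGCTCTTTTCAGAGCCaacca
H4C3, plus strand, chr6:26104540-26104565: ccaaaGGCCCTTTTCAGGGCCgctca
The stem opened with GGCCC in the 4 H4 genes and with GGCTC in the members of the other subfamilies. H2AC11 was the single gene of the 31 with a stem position that had no Watson-Crick partner.

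The 22 genes above 1 FPKM also differed in where their annotated coding transcripts end. In 15 of them every coding transcript ended at the stem-loop. The other 7 had a coding transcript whose end lay more than 50 nt past it on the genome, namely H2AC6, H2BC4, H2BC5, H2BC11, H2BC15, H2BC18 and H2BC21. All but H2BC21 had a coding transcript of 2 or 3 exons, and whether the spliced transcripts keep the stem-loop was not tested. An AATAAA or ATTAAA in the last 50 nt of a coding transcript was absent for H2AC6 and H2BC18. H4C11, which ends at the stem-loop, had one. Several genes are near copies of each other, and Salmon divides reads between such copies where its index holds both. The share of a gene's 31-nt words found in any other gene was taken, with the gene sharing the most of them in brackets. It was 99.2% for H3C14 (H3C15, with the same coding sequence) and 92.5% for H4C11 (H4C12, with the same coding sequence). For H2BC12 it was 71.0% (H2BC12L), for H2AC13 64.9% (H2AC14), and for H2AC20 (H2AC19) and H2BC18 (H3-7) 35.6% each. The levels of these 6 genes are therefore uncertain. For H1-1, H4C3 and H4C8 the share was 0%. The shares were taken from GENCODE release 44 transcripts, and whether the authors' index of release 19 held each copy was not tested.

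H2BC12 held the highest level, at a mean of 286 FPKM over the 27 libraries, followed by H1-2 at 91.9. In the middle range were H4C3 (26.9), H2BC11 (25.7), H2AC20 (23.2), H2BC5 (22.5), H4C11 (17.2) and H2AC6 (11.4 FPKM). Between 3 and 10 FPKM lay H2BC21 (9.08), H4C8 (6.15), H1-4 (6.06), H2BC15 (5.43), H2BC4 (5.05), H3C4 (4.97) and H2AC7 (3.11 FPKM). The lowest genes tested were H2AC11 (2.72), H2AC21 (2.07), H3C14 (1.79), H2BC18 (1.58), H4C16 (1.54), H1-1 (1.33) and H2AC13 (1.24 FPKM). H2AC13 lay just inside the limit of 1 FPKM and H2BC13 just outside, at 0.981 FPKM. The 8 other genes below the limit (H1-5, H1-6, H2AC1, H2AC25, H2BC1, H2BC26, H3C12 and H3C13) had means of 0.00137 to 0.260 FPKM and were at 0 in most libraries. Of the summed FPKM of the 31 genes, H2B genes made up most in every group. Their share ran from 57.9% ± 1.0 (SD, n = 3) in the nuclear fraction with TPR A to 69.9% ± 3.4 in the total fraction of control cells. H3 genes made up the least, from 0.638% to 2.09% in the group means. The table held 4 of 13 H3, 4 of 13 H4 and 8 of 16 H2A genes, against 10 of 17 for H2B. These are therefore shares among the genes listed, not among all histone mRNAs.

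Low values of genes with 1 transcript step by whole reads, which gave each library's depth, and 83.9% of 32660 such values came within 0.1 of a whole read. On 1 kb of effective transcript, 1 FPKM stood for 44.9 to 60.3 reads in the nuclear, 31.7 to 47.7 in the cytoplasmic/ER and 40.8 to 87.5 in the total libraries. Histone mRNAs are short, so fewer reads stand behind the same FPKM. H2BC12 had an estimated 1632 to 5616 reads per library, H4C8 13.8 to 186 and H1-1 0 to 199, with a median of 20.1. H1-1, H2AC21 and H2AC7 were each listed at 0 in 1 or 2 libraries.

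Libraries that stand apart have to be named first. The nuclear library of control replicate 2 had 21.8% of its FPKM from mitochondrial genes, against 0.774% to 2.42% in the 8 other nuclear libraries, and its profile was closest to the total libraries. The total library of control replicate 2 had 0.738%, against 15.8% to 24.7% in the other total libraries, and was closest to the nuclear ones. The other 25 libraries were closest to the fraction they are labelled with. The labels were kept, and values without control replicate 2 are given beside the results. Replicate 1 is described in the labels in other terms than replicates 2 and 3, so values within replicate 1 and within replicates 2 and 3 are also given. TPR itself was at 25.3 to 28.2 FPKM in the control total libraries and 3.23 to 6.01 in the TPR-depleted ones (log2 change -2.59 with TPR A and -2.44 with TPR D). Of the markers of U2OS cells, VIM was at a mean of 1617, SPARC 528, COL1A1 42.7, RUNX2 15.7 and CDH11 6.66 FPKM, while COL1A2 was at 0.264. Of 6 markers of other cell types, EPCAM (3.88) and CD34 (1.52 FPKM) exceeded 1 FPKM and the others had at most 0.627.

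In the nucleus, the estimates of replication-dependent histone mRNAs were higher in TPR-depleted cells across all 5 subfamilies. With both shRNAs together the log2 estimate was above 0 for 22 of 22 genes, with a median of 1.29, while the median of the 12381 protein-coding genes tested was -0.01. H1-1 and H2AC21, with control nuclear means of 0.371 and 0.625 FPKM, reached the limit of 1 FPKM with help from the TPR-depleted libraries. Counts of estimates above 0, here and below, are therefore descriptions and not tests. The genes that passed the test (limma, Benjamini-Hochberg adjusted p under 0.05) were H1-4, H2AC6, H2BC4, H2BC5, H3C4 and H4C8, which is 6 of 22 against 0.568% of all genes tested called higher. With TPR A alone they were 5 (H2AC6, H2BC4, H2BC5, H3C4 and H4C8; 0.575% of all genes), and with TPR D alone 3 (H2BC4, H2BC5 and H4C8; 0.219% of all genes). No histone gene was called lower. For 7 of the 22 all 6 TPR-depleted cultures lay above all 3 controls, namely the 6 genes called and H2AC7, whereas 2.97% of all genes did so.

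The summed FPKM of the 31 genes was also taken per culture. In the nuclear libraries it was 427, 274 and 343 FPKM in control replicates 1 to 3, 652, 853 and 603 with TPR A, and 658, 748 and 462 with TPR D. Each TPR-depleted culture exceeded each control. The median log2 distance of the 22 genes from their control means was 1.35, 1.41 and 0.50 in TPR A replicates 1 to 3 and 1.45, 1.46 and 0.65 with TPR D, so replicate 3 stood lowest under either shRNA. Since the fractions were sequenced as bulk RNA, more histone mRNA per cell and more cells in S phase cannot be told apart. The summed FPKM of the S phase genes was 2003 to 3200 in control nuclear libraries, 2066 to 2463 with TPR A and 1949 to 2428 with TPR D, and the part of the cell cycle in these values was not tested.

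**Figure D1:**
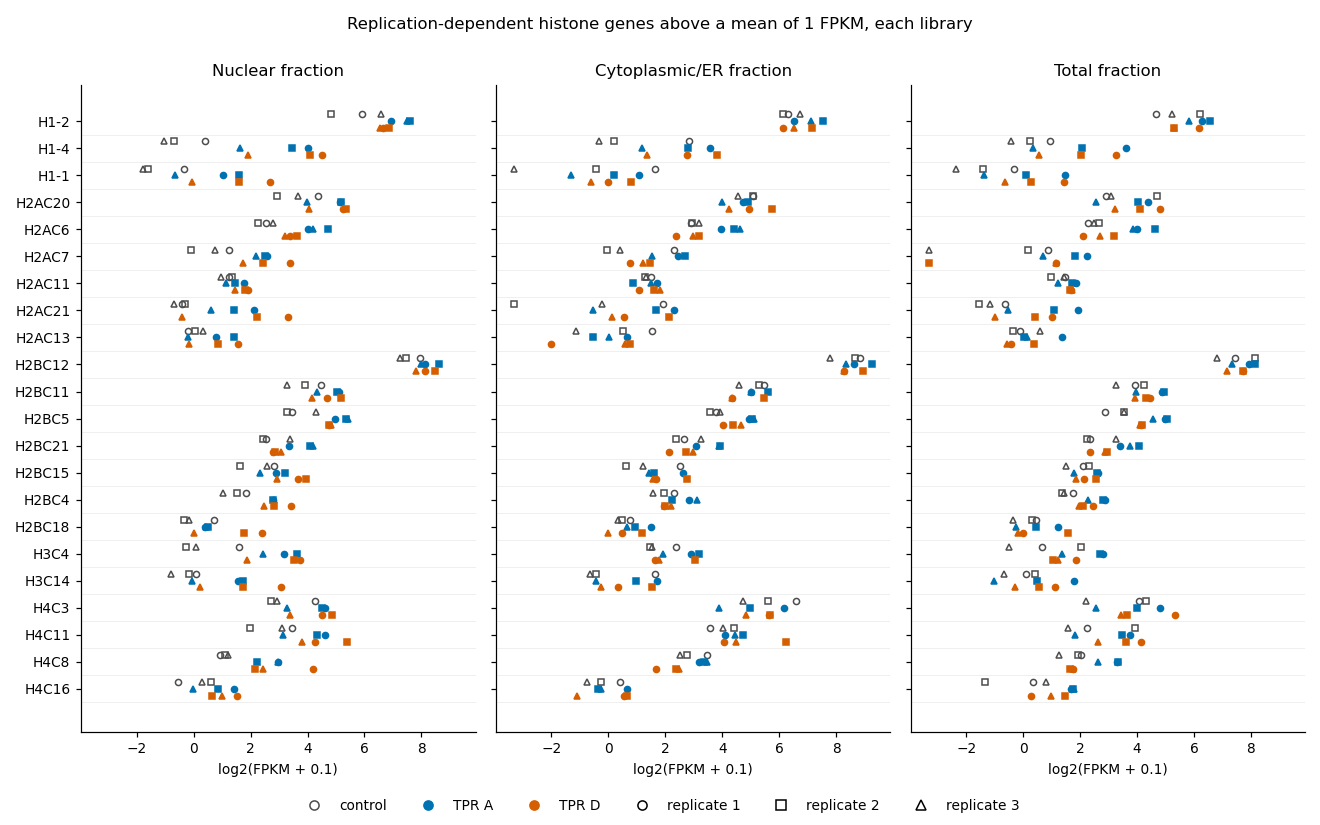
Log2(FPKM + 0.1) of each of the 22 histone genes above a mean of 1 FPKM (rows, ordered by subfamily and level) in the nuclear, cytoplasmic/ER and total libraries. Open symbols are control cultures and filled ones TPR A or TPR D, with the shape giving the replicate. In the nuclear panel the filled symbols lie to the right of the open ones for most genes, with no overlap for 7 of 22, while in the cytoplasmic/ER panel this holds for 1 gene, H2BC5.

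Without control replicate 2 the median was 1.02 with 22 of 22 above 0, and H2BC4 (adjusted p = 0.0295) and H2BC5 (adjusted p = 0.0298) remained called for both shRNAs, H2AC6 and H2BC5 for TPR A and H2BC4 for TPR D. The median was 1.23 within replicate 1 and 1.30 within replicates 2 and 3, and no gene was called for both shRNAs within replicates 2 and 3 or when the model held the nuclear libraries alone.

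In the total fraction the estimates were above 0 as well, with a smaller median. For both shRNAs the median log2 change was 0.70 (22 of 22 above 0, against a median of -0.05 for protein-coding genes), and H2AC6, H2BC4 and H2BC5 were called, 3 of 22 against 0.773% of all genes. The same 3 genes were called with TPR A (0.541% of all genes), where the median was 1.05. In this fraction same-numbered cultures of control and TPR A deviated together, and a model with the replicate number as a block called 7 genes with TPR A (H1-4, H2AC6, H2BC4, H2BC5, H2BC11, H2BC21 and H4C8). The share of all genes called under that model is not given here, so the count cannot be set against a background. With TPR D the median was 0.54, and limma called 0 genes (0.315% of all genes), with 2 at an unadjusted p under 0.05. The TPR-depleted cultures did not overlap the controls for 2 genes, H2BC4 and H2BC5 (3.94% of all genes). Summed over the 31 genes, the total libraries had 285, 481 and 217 FPKM in control replicates 1 to 3, 540, 576 and 328 with TPR A and 459, 382 and 278 with TPR D, so the groups overlapped. Control replicate 2 was the highest control. Without it the median for both shRNAs was 0.87 and H2BC5 was called (adjusted p = 0.0121).

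In the cytoplasmic/ER fraction 17 of 22 estimates for both shRNAs were above 0, with a median of 0.46. H2BC5 was called (1 of 22, against 0.390% of all genes), and it was also the single histone gene for which all TPR-depleted cultures lay above all controls (2.50% of all genes). With TPR A the genes called were H2AC6 and H2BC5 (0.397% of all genes). With TPR D limma called 0 genes (0.212% of all genes), with 1 at an unadjusted p under 0.05. The 5 estimates below 0 were those of H2AC13 (-0.37), H2AC20 (-0.11), H2BC11 (-0.12), H4C3 (-0.41) and H4C8 (-0.14), and none was called. Without control replicate 2 the median was 0.25 and no gene was called for both shRNAs. The median was -0.12 within replicate 1 and 0.63 within replicates 2 and 3, so its sign differed between these sets of cultures.

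The N/C fold change, the change of the nuclear to cytoplasmic/ER ratio between TPR-depleted and control cells, had estimates above 0 for 22 of 22 genes, with a median of 0.86 on the log2 scale against 0.00 for protein-coding genes. No gene passed the test, as limma called 0 of 22 for both shRNAs and 0 with either shRNA, and 0% of all 14611 genes in each of the 3 contrasts. At an unadjusted p under 0.05 there were 5 histone genes with both shRNAs, 1 with TPR A alone and 5 with TPR D alone. The share of all genes at that cutoff is not given here, so these counts cannot be set against a background. For 7 of 22 genes (H1-4, H2AC20, H2BC4, H2BC11, H3C4, H4C3 and H4C8) the ratio of each TPR-depleted culture lay above that of each control, against 3.07% of all genes. The smallest p that 84 ways of choosing 3 of 9 cultures allow is 0.0119, and it was reached for H1-4, H2AC20, H2BC11, H3C4 and H4C3 (2-sided exact permutation test, unadjusted). Without control replicate 2 the N/C median was 0.86, in replicate 1 alone 1.08 and in replicates 2 and 3 alone 0.66.

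**Figure D2:**
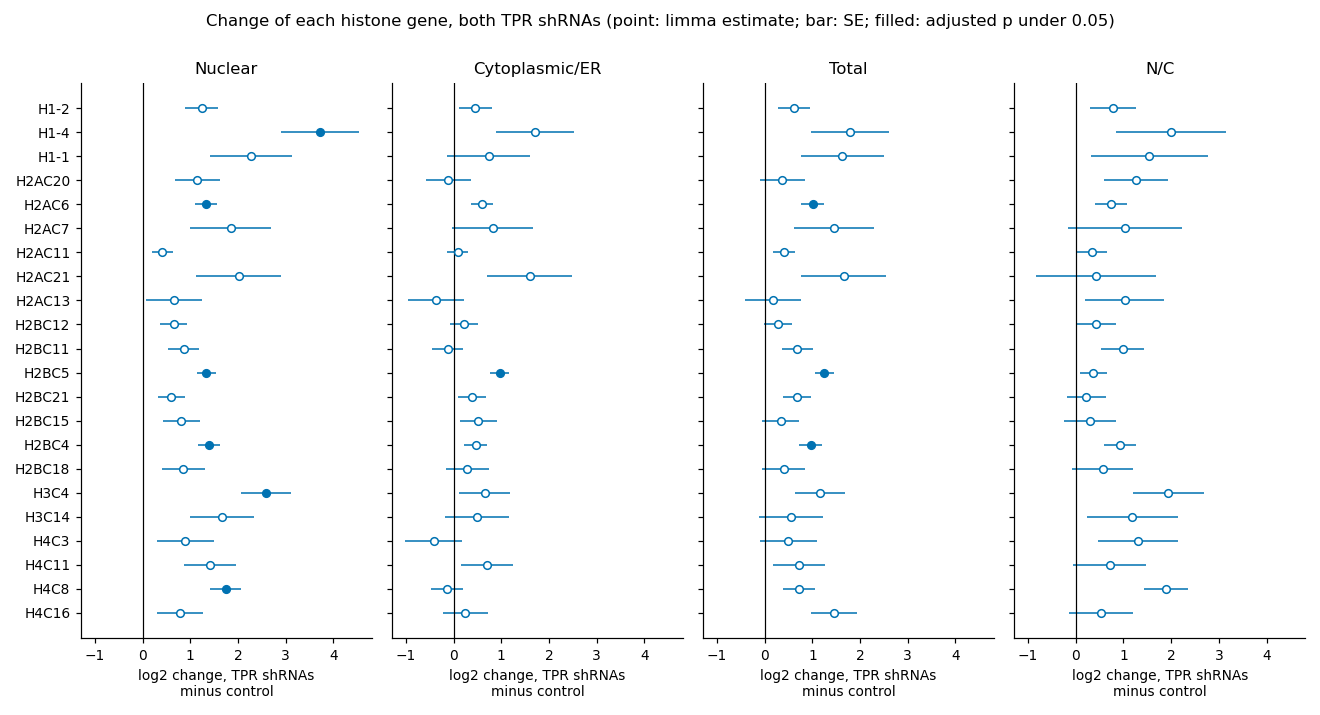
Log2 change of each histone gene for both TPR shRNAs together against control (points, limma estimates; bars, SE) in the nuclear, cytoplasmic/ER and total fractions and for N/C. Filled points passed an adjusted p of 0.05. All 22 points lie above 0 in the nuclear, total and N/C panels, and filled points number 6, 1, 3 and 0 from left to right.

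In control cells the histone mRNAs were mostly lower in the nuclear than in the cytoplasmic/ER fraction, relative to other genes. The libraries were scaled to each other over all genes. A log2 ratio of 0 is therefore about that of the median gene, and not equal amounts in both compartments. The median log2 N/C ratio of the 22 genes was -0.45, with 4 of 22 above 0. H2BC11 (-1.18 ± 0.37 SE), H2BC12 (-0.85 ± 0.34), H4C3 (-2.30 ± 0.69) and H4C8 (-1.80 ± 0.38) were called lower in the nucleus, 4 of 22 against 19.2% of all genes, a share close to the background. The nuclear and the cytoplasmic/ER library of a replicate come from the same culture. With the culture as a block, an alternative added after the data were seen, 8 genes were called. The share of all genes called under that model is not given here, so this count cannot be set against a background. Without control replicate 2 only H4C8 was called. In TPR-depleted cells the median N/C ratio was 0.22 with TPR A, with 15 of 22 above 0, and 0.78 with TPR D, with 17 of 22 above 0.

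For both shRNAs the median log2 change in the nucleus was 2.28 for H1 (3 genes), 2.13 for H3 (2 genes), 1.24 for H2A (6 genes), 1.16 for H4 (4 genes) and 0.85 for H2B (7 genes). The order of the total fraction had the same first and last subfamily, at 1.63 for H1, 0.86 for H3, 0.72 for H4, 0.70 for H2A and 0.68 for H2B. In the cytoplasmic/ER fraction the medians were 0.74 for H1, 0.57 for H3, 0.39 for H2B, 0.34 for H2A and 0.06 for H4. The N/C medians were 1.56 for H3, 1.54 for H1, 1.01 for H4, 0.88 for H2A and 0.43 for H2B. No nuclear median moved by over 1.5 times when a culture was left out. The cytoplasmic/ER medians did so for H1 (1.89 without control replicate 1), H2A (0.13 without control replicate 2), H3 (1.07, 0.33 and 0.30 without control replicate 1, 2 or 3, and 0.33 without TPR D replicate 2) and H4, which ranged from -0.17 without control replicate 3 to 0.30 without control replicate 1. Within replicate 1 the cytoplasmic/ER medians of H2A (-0.29), H3 (-0.30) and H4 (-0.18) lay below 0. Leaving out control replicate 3 gave total medians of 0.43 for H2B, 0.42 for H3 and 0.38 for H4. The N/C medians were 0.89 for H1 and 0.45 for H2A without control replicate 1, and that of H2A was 0.51 without TPR D replicate 1. With 2 to 7 genes a subfamily these are descriptions, and differences between subfamilies were not tested. The H1 and H3 medians rest on genes whose replicates differ widely, as given below. Each H1 median was the estimate of H1-1, whose control means were 0.371 (nuclear), 1.22 (cytoplasmic/ER) and 0.360 FPKM (total). H1-1 reached the limit of 1 FPKM with help from the TPR-depleted libraries, so the place of H1 in these orders is no test.

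**Figure D3:**
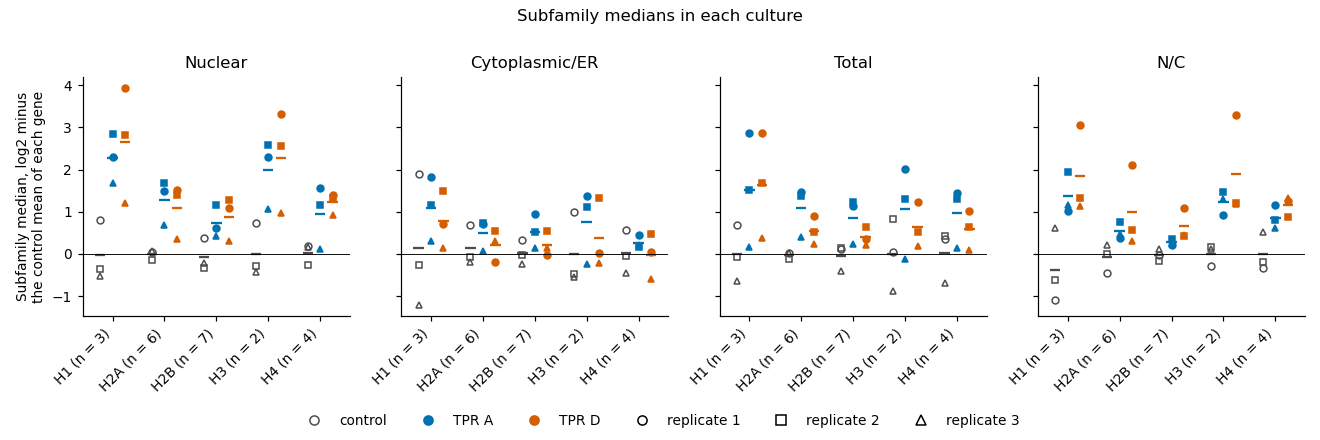
Median over the genes of each subfamily of the log2 distance from each gene's control mean, for every culture (points; n is the number of genes) and as the group mean (short lines), in the 3 fractions and for N/C. In the nuclear panel all TPR-depleted cultures lie above 0 in each subfamily and reach 3.93 for H1 in TPR D replicate 1, while the cytoplasmic/ER panel shows TPR-depleted cultures on both sides of 0 for H2A, H2B, H3 and H4.

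Per culture, the H1 median in the nucleus was 2.30, 2.83 and 1.68 in TPR A replicates 1 to 3 and 3.93, 2.82 and 1.22 with TPR D, against 0.82, -0.36 and -0.53 in the controls. The H2B median was 0.62, 1.15 and 0.42 with TPR A and 1.08, 1.27 and 0.30 with TPR D, against 0.37, -0.34 and -0.22 in the controls. H1 thus stood above H2B in each of the 6 TPR-depleted cultures. The limit of 1 FPKM that H1-1 passed was taken with these cultures included, so this is a description. For H2B the lowest TPR-depleted culture (0.30) lay below the highest control (0.37).

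Of the H1 genes, which encode linker histones, H1-4 was the only one called without a block. In the nucleus it had 1.21, 0.525 and 0.382 FPKM in control replicates 1 to 3, 16.1, 10.9 and 2.99 with TPR A, and 22.6, 16.8 and 3.63 with TPR D. The lowest TPR-depleted culture was above the highest control. The estimate for both shRNAs was a 13.1-fold rise (log2 change 3.71 ± 0.82 SE, limma adjusted p = 0.0303, exact permutation p = 0.0119), and 3.60 without control replicate 2 (adjusted p = 0.171). In the cytoplasmic/ER fraction H1-4 had 6.95, 1.05 and 0.698 FPKM in control, 11.9, 6.80 and 2.18 with TPR A and 6.72, 14.1 and 2.46 with TPR D, and here control replicate 1 lay within the range of the TPR-depleted cultures. In the total fraction it had 1.81, 1.09 and 0.644 FPKM in control, 12.02, 4.07 and 1.19 with TPR A and 9.43, 4.04 and 1.36 with TPR D, with overlap through replicate 3. The log2 N/C ratio of H1-4 was -2.39, -0.83 and -0.70 in control, 0.44, 0.69 and 0.44 with TPR A and 1.74, 0.27 and 0.58 with TPR D. H1-4 thus had a ratio below 0 in all controls and above 0 in all TPR-depleted cultures, and the largest N/C fold change of the 22 genes at a log2 of 2.0015 ± 1.16 SE (adjusted p = 0.9994).

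No change of H1-1 passed the test, which has no block. Same-numbered control and TPR-depleted cultures did not deviate together throughout in the nucleus. With the replicate number as a block H1-1 was called there with TPR D (limma adjusted p = 0.0126) and for both shRNAs together (limma adjusted p = 0.0118), so its call depended on the model. Its nuclear values were 0.693, 0.227 and 0.192 FPKM in control, 1.95, 2.93 and 0.536 with TPR A and 6.38, 2.90 and 0.870 with TPR D. TPR A replicate 3 fell within the range of the controls. The nuclear log2 change was 2.28 ± 0.86 SE and did not pass the test (adjusted p = 0.272, exact permutation p = 0.0357). Its cytoplasmic/ER values were 3.02 and 0.645 FPKM in control replicates 1 and 2, while replicate 3 was listed at 0. They were 2.02, 1.05 and 0.307 FPKM with TPR A and 0.894, 1.62 and 0.551 with TPR D. The cytoplasmic/ER log2 estimate was 0.74 and turned to -0.55 without control replicate 3, and the group means were 1.22 ± 1.59 (SD, n = 3), 1.12 ± 0.859 and 1.02 ± 0.544 FPKM for control, TPR A and TPR D. In the total fraction the values were 0.708, 0.274 and 0.0973 FPKM in control, 2.65, 0.981 and 0.283 with TPR A and 2.61, 1.10 and 0.550 with TPR D. The N/C log2 change of H1-1 was 1.54 ± 1.22 SE (adjusted p = 0.9994), 3.27 within replicate 1 and 0.68 within replicates 2 and 3, and the groups overlapped in all 3 fractions and in the ratio.

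H1-2 was the most abundant H1 gene. In the nucleus it had 60.3, 28.2 and 96.6 FPKM in control, 123, 196 and 178 with TPR A and 101, 116 and 93.6 with TPR D. Control replicate 3 exceeded TPR D replicate 3 and the other controls lay below all TPR-depleted cultures. The log2 change was 1.24 ± 0.34 SE (adjusted p = 0.104), and with TPR A alone 1.57 ± 0.40 (adjusted p = 0.0602). Its cytoplasmic/ER values were 79.3, 69.7 and 107 FPKM in control, 91.3, 185 and 138 with TPR A and 70.2, 141 and 92.2 with TPR D, and in the total fraction 25.1, 73.6 and 37.3, then 77.7, 93.6 and 56.8, and 71.9, 39.7 and 39.3. The groups overlapped in each of these fractions.

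Among the H2A genes, H2AC6 differed most clearly, and it did so with TPR A. In the nucleus it had 5.76, 4.64 and 6.80 FPKM in control, 15.9, 26.3 and 18.3 with TPR A and 10.3, 12.3 and 9.19 with TPR D. All 6 TPR-depleted cultures exceeded all controls, and those with TPR A exceeded those with TPR D. The nuclear rise was 3.45-fold with TPR A (log2 change 1.78 ± 0.27 SE, adjusted p = 0.00221, called in 9 of 9 fits that left out a culture), and the estimate with TPR D was 1.85-fold (0.89 ± 0.27, adjusted p = 0.179). In the cytoplasmic/ER fraction it had 7.30, 7.61 and 9.03 FPKM in control, 15.4, 21.2 and 24.3 with TPR A and 5.05, 8.88 and 7.68 with TPR D, and in the total fraction 4.76, 6.26 and 5.48, then 15.9, 24.5 and 14.4, and 4.25, 9.05 and 6.33. In both fractions the TPR A cultures lay above all others and the TPR D cultures overlapped the controls. H2AC6 rose with TPR A in both (cytoplasmic/ER log2 change 1.35 ± 0.27, adjusted p = 0.0174; total 1.75 ± 0.27, adjusted p = 0.0031). The limma adjusted p without control replicate 2 was 0.0622 in the cytoplasmic/ER and 0.0128 in the total fraction. The cytoplasmic/ER call was also lost without control replicate 1, TPR A replicate 2 or TPR A replicate 3 (called in 5 of 9 such fits, highest adjusted p = 0.124), and the total one without TPR A replicate 2 (adjusted p = 0.0725).

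H2AC20, the most abundant H2A gene, had 20.6, 7.59 and 12.7 FPKM in control nuclei, 34.8, 35.7 and 15.5 with TPR A and 37.5, 40.2 and 16.5 with TPR D. Replicate 3 of either shRNA fell below control replicate 1. Its cytoplasmic/ER values were 33.3, 33.5 and 23.2 FPKM in control, 26.4, 29.8 and 15.7 with TPR A and 30.5, 53.8 and 18.9 with TPR D, and the total values 7.34, 26.0 and 8.35, then 20.7, 16.4 and 5.78, and 28.02, 17.3 and 9.24. None of its changes in a fraction passed the test, and its N/C log2 change was 1.26 ± 0.67 SE without overlap between the groups. The other H2A genes had nuclear estimates from 0.42 for H2AC11 to 2.02 for H2AC21, with H2AC7 at 1.85 and H2AC13 at 0.66, and none was called in any fraction. H2AC11 was the steadiest of them, at 1.83 to 2.48 FPKM in control nuclei and 2.12 to 3.70 in TPR-depleted ones. H2AC7 was at 0.838 to 2.26 FPKM in control nuclei and 3.21 to 10.4 in TPR-depleted ones and did not overlap, yet with an SE of 0.85 on the log2 scale it did not pass (adjusted p = 0.395).

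H2BC5, a core histone gene like the other H2B genes, was the only member called in all 3 fractions for both shRNAs together, an average of the 2. With TPR A alone H2BC5 was also called in all 3 fractions. With TPR D alone it was called in the nucleus (log2 change 1.11, limma adjusted p = 0.0282). It was not called with TPR D in the cytoplasmic/ER or the total fraction (total log2 change 0.89, limma adjusted p = 0.0713). In the nucleus it had 10.99, 9.57 and 19.7 FPKM in control, 31.1, 40.7 and 42.7 with TPR A and 27.1, 27.1 and 27.96 with TPR D. In the cytoplasmic/ER fraction the values were 13.6, 11.8 and 14.97 FPKM in control, 30.9, 32.7 and 34.6 with TPR A and 16.1, 20.8 and 25.1 with TPR D, and in the total fraction 7.21, 11.4 and 11.7, then 31.5, 33.3 and 23.6, and 17.4, 18.0 and 16.9. In each fraction all 6 TPR-depleted cultures lay above all 3 controls. For both shRNAs together H2BC5 rose 2.52-fold in the nucleus (log2 change 1.34 ± 0.20 SE, adjusted p = 0.00214), 1.95-fold in the cytoplasmic/ER fraction (0.97 ± 0.20, adjusted p = 0.0241) and 2.38-fold in the total fraction (1.25 ± 0.20, adjusted p = 0.00427). Its N/C log2 change was 0.37 ± 0.28 (adjusted p = 0.9994). Without control replicate 2 the adjusted p was 0.0298, 0.122 and 0.0121 in the nuclear, cytoplasmic/ER and total fractions.

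H2BC4 had 3.49, 2.80 and 1.92 FPKM in control nuclei, 6.88, 6.86 and 6.97 with TPR A and 10.55, 6.89 and 5.41 with TPR D. The groups did not overlap, and the rise was 2.62-fold (log2 change 1.39 ± 0.23 SE, adjusted p = 0.00484), called in 9 of 9 fits that left out a culture. In the total fraction it had 3.25, 2.50 and 2.60 FPKM in control, 7.30, 6.92 and 4.74 with TPR A and 5.33, 4.17 and 3.84 with TPR D, again without overlap (1.95-fold, 0.96 ± 0.23, adjusted p = 0.0409; 0.280 without control replicate 2). Cytoplasmic/ER values of H2BC4 were 4.88, 3.79 and 2.89 FPKM in control, 7.07, 4.62 and 8.47 with TPR A and 3.77, 3.90 and 4.44 with TPR D, where the groups overlapped. The N/C log2 change was 0.93 ± 0.33 (adjusted p = 0.9994).

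H2BC12, the gene with the highest level, was not called in any fraction. Its nuclear values were 245, 175 and 151 FPKM in control, 280.5, 395 and 251 with TPR A and 278, 356 and 226 with TPR D. Its cytoplasmic/ER libraries had 458, 409 and 218 FPKM in control, 392, 619 and 323 with TPR A and 312, 495 and 311 with TPR D, and in the total fraction 174, 281 and 111, then 244, 282 and 161, and 211, 213 and 141. The groups overlapped in each fraction. The nuclear log2 change was 0.65 ± 0.29 SE (adjusted p = 0.379), and it was 0.22 in the cytoplasmic/ER and 0.28 in the total fraction.

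H2BC21 had the smallest N/C fold change of the 22 genes, at a log2 of 0.22 ± 0.41 SE. Its nuclear values were 5.65, 5.31 and 10.5 FPKM in control, 10.1, 16.7 and 18.3 with TPR A and 6.78, 7.22 and 8.21 with TPR D. The cytoplasmic/ER values were 6.23, 5.07 and 9.43 FPKM in control, 8.36, 14.9 and 14.8 with TPR A and 4.25, 6.55 and 7.80 with TPR D, and the total values 4.94, 4.65 and 9.46, then 10.5, 16.6 and 13.2, and 4.99, 7.66 and 7.22. The TPR D cultures stayed within the range of the controls in the nuclear and total fractions, and in the cytoplasmic/ER fraction replicate 1 lay below it. With TPR A, replicate 1 overlapped control replicate 3 in the nuclear and cytoplasmic/ER fractions. The log2 N/C ratio lay between -0.11 and 0.18 in control cultures and between 0.12 and 0.67 in TPR-depleted ones. Of the other H2B genes, H2BC11, H2BC15 and H2BC18 had nuclear estimates of 0.86, 0.81 and 0.85 and were not called.

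H3C4 was the higher of the 2 H3 genes. In the nucleus it had 2.94, 0.735 and 0.963 FPKM in control, 8.95, 12.1 and 5.26 with TPR A and 13.3, 11.6 and 3.55 with TPR D, without overlap. The rise was 6.01-fold (log2 change 2.59 ± 0.53 SE, adjusted p = 0.0172, exact permutation p = 0.0119), with an adjusted p of 0.110 without control replicate 2. Cytoplasmic/ER values of H3C4 were 5.13, 2.63 and 2.77 FPKM in control, 7.30, 9.03 and 3.71 with TPR A and 2.98, 8.22 and 3.35 with TPR D, and in the total fraction 1.48, 4.03 and 0.616, then 6.97, 6.36 and 2.49, and 3.49, 1.98 and 2.24. The groups overlapped in both, and no change there passed the test. The log2 N/C ratio was -0.75, -1.67 and -1.40 in control, 0.30, 0.44 and 0.50 with TPR A and 2.13, 0.50 and 0.13 with TPR D, and its change was 1.94 ± 0.75 (adjusted p = 0.9994). H3C14 had a nuclear estimate of 1.67 ± 0.67 and was not called.

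H4C8 rose in the nucleus, while its estimates in the other fractions did not pass the test. Its nuclear values were 1.79, 2.05 and 2.21 FPKM in control, 7.63, 4.53 and 7.78 with TPR A and 18.2, 4.39 and 5.33 with TPR D. The rise was 3.36-fold (log2 change 1.75 ± 0.33 SE, adjusted p = 0.00888), with an adjusted p of 0.0633 without control replicate 2. Cytoplasmic/ER values of H4C8 were 10.8, 6.71 and 5.68 FPKM in control, 8.88, 10.2 and 10.8 with TPR A and 3.11, 5.04 and 5.53 with TPR D, so all TPR D cultures lay below all controls (log2 change -0.72 ± 0.38, adjusted p = 0.596). In the total fraction the values were 4.0005, 3.74 and 2.31 FPKM in control, 9.64, 10.03 and 6.14 with TPR A and 3.23, 3.07 and 3.25 with TPR D, with all TPR A cultures above the controls. The N/C log2 change was 1.89 ± 0.46 (adjusted p = 0.9994; unadjusted exact permutation p = 0.0357), and 2.58 ± 0.53 with TPR D alone. Replicate 1 alone gave 3.64 and replicates 2 and 3 alone 1.01 for both shRNAs.

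H4C3, the most abundant H4 gene, had the lowest N/C ratio of the 22 genes in control cells. It had 19.2, 6.42 and 7.52 FPKM in control nuclei, 24.1, 22.6 and 9.65 with TPR A and 22.9, 29.2 and 10.3 with TPR D, with overlap. Cytoplasmic/ER values of H4C3 were 96.3, 48.3 and 26.6 FPKM in control, 71.9, 31.2 and 14.8 with TPR A and 49.97, 51.6 and 28.4 with TPR D, and in the total fraction 16.8, 19.8 and 4.57, then 27.6, 16.002 and 5.84, and 40.1, 12.5 and 10.9. The log2 N/C ratio was -2.29, -2.84 and -1.78 in control, -1.56, -0.45 and -0.60 with TPR A and -1.12, -0.81 and -1.42 with TPR D, so the groups did not overlap although neither fraction separated them. H4C11 and H4C16 had nuclear estimates of 1.42 ± 0.54 and 0.78 ± 0.48 and were not called.

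The 2 TPR shRNAs were then compared with each other, a contrast added after the data were seen. In the nucleus the medians were 1.27 (TPR A) and 1.19 (TPR D), and limma called 0 genes, with 2 higher with TPR A at an unadjusted p under 0.05 (0.226% of all genes called higher with TPR A). In the cytoplasmic/ER fraction the medians were 0.56 and 0.19, and in the total fraction 1.05 and 0.54. H2AC6 was higher with TPR A than with TPR D in both, by a log2 of 1.504 ± 0.27 SE in the cytoplasmic/ER fraction (adjusted p = 0.0106, 1 gene called against 0.431% of all genes) and 1.48 ± 0.27 in the total fraction (adjusted p = 0.0152, 1 gene called against 0.226% of all genes). All 3 TPR A cultures exceeded all 3 TPR D cultures in both fractions. Same-numbered cultures under the TPR shRNAs deviated together in the nuclear and the cytoplasmic/ER fraction. In a model with that number as a block H2AC6 and H2BC21 were called in each of the 2, with an adjusted p of 0.0416 and 0.0396 in the nucleus and of 0.00103 and 0.0295 in the cytoplasmic/ER fraction. The share of all genes called under the block is not given here. For the N/C fold change the medians were 0.64 with TPR A, with 20 of 22 above 0, and 1.13 with TPR D, with 22 of 22. The difference between them, TPR A minus TPR D, had a median of -0.35 with 18 of 22 below 0, which was -1.15 in replicate 1 and 0.07 in replicates 2 and 3, and limma called 0 genes, with 1 lower at an unadjusted p under 0.05. Both shRNA comparisons share the control cultures, so no relation between their estimates is given.

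**Figure D4:**
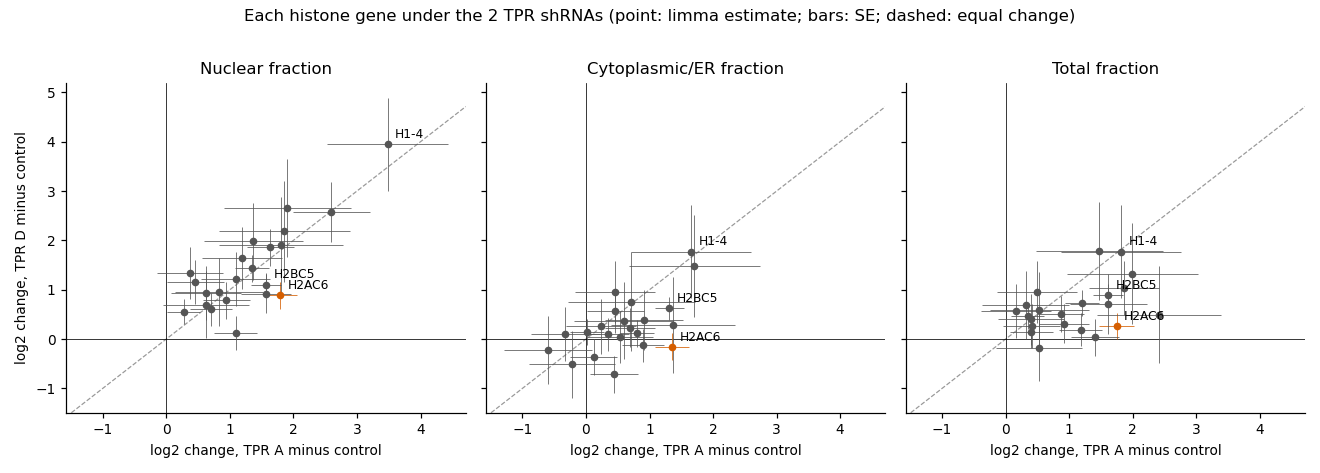
Log2 change of each of the 22 genes with TPR D (y axis) against that with TPR A (x axis) in the 3 fractions, with SE bars. The dashed line marks equal change, and both axes use the same control cultures. H2AC6 is drawn in orange and lies below the line, at 1.35 with TPR A and -0.16 with TPR D in the cytoplasmic/ER panel, while H1-4 lies near the line in each panel.

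The spread between replicates was larger for the histone genes than for most genes tested. The SD between replicates on the log2 scale, pooled over the shRNAs within a fraction and averaged over the 3 fractions, had a median of 0.680 for the 22 genes and 0.340 for all protein-coding genes tested. Genes with every transcript ending at the stem-loop had a median of 0.838 (15 genes, 0.294 to 1.34), and the 7 with an extended transcript 0.432 (0.275 to 0.653). H2BC5 (0.275), H2AC11 (0.294), H2BC4 (0.321) and H2AC6 (0.332) had the smallest spread, while H2AC21 (1.34), H1-1 (1.31), H1-4 (1.28), H2AC7 (1.16) and H3C14 (1.03) had the largest. The last 5 have means of 1.33 to 6.06 FPKM, and H4C3, at 26.9 FPKM, had an SD of 0.922. The part of depth in the spread was not tested. The difference between the 2 kinds of transcript was not tested.

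**Figure D5:**
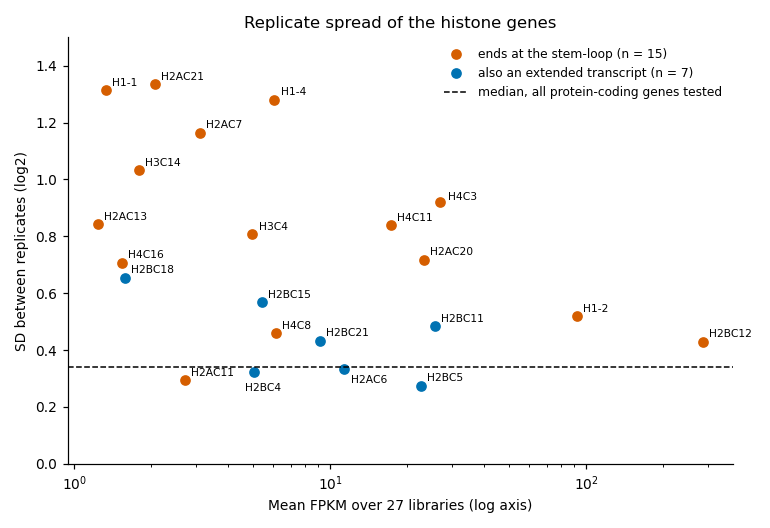
SD between replicate cultures on the log2 scale (y axis) against mean FPKM over the 27 libraries (x axis, log scale) for the 22 histone genes. Genes ending at the stem-loop are orange (n = 15) and those with an extended transcript blue (n = 7). The dashed line is the median of all protein-coding genes, 0.340, and 4 genes lie below it.

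For both shRNAs the nuclear median was 1.42 for genes ending at the stem-loop, with 3 of 15 called. It was 0.86 for those with an extended transcript, with 3 of 7 called, against 0.568% of all genes called higher. In the total fraction the medians were 0.72 and 0.69, and the 3 genes called (H2AC6, H2BC4 and H2BC5) were all of the extended kind. The N/C medians were 1.03 and 0.57. In TPR A replicate 3 the nuclear median was 0.41 for genes ending at the stem-loop and 1.34 for the others, the widest gap of the 6 TPR-depleted cultures. FPKM per gene does not separate the transcripts of a gene, so which transcript changed was not tested.

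Of 17 genes of histone mRNA 3′ processing, the median log2 change for both shRNAs was -0.06 in the nuclear, -0.09 in the cytoplasmic/ER and -0.10 in the total fraction, and 1 of 17 was called, CSTF2, a subunit of the cleavage machinery. CSTF2 was at 41.6, 94.2 and 36.5 FPKM in control total libraries, 33.4, 28.2 and 28.7 with TPR A and 15.2, 17.3 and 14.5 with TPR D, and the TPR-depleted cultures all lay below the controls. It fell in the total fraction with TPR D (log2 change -1.66 ± 0.28 SE, adjusted p = 0.00449, against 0.438% of all genes called lower) and for both shRNAs (-1.20 ± 0.24, adjusted p = 0.0177, against 0.363% of all genes). Its value without control replicate 2, the highest control, was -0.81 for both shRNAs (adjusted p = 0.167), and with TPR D it was still called (adjusted p = 0.0260). SLBP, which binds the stem-loop, was at 36.5 to 63.4 FPKM in control total libraries and 39.1 to 57.2 in TPR-depleted ones, with a log2 change of -0.09.

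The 6 genes of histone gene transcription, among them NPAT and HINFP, had medians of 0.20, 0.39 and 0.20 in the nuclear, cytoplasmic/ER and total fractions, and the 6 of histone mRNA decay, among them UPF1 and XRN1, had -0.17, 0.02 and 0.14, with 0 called in either list (limma, both shRNAs, at most 1 of a list at an unadjusted p under 0.05 in a fraction). In the cytoplasmic/ER fraction 5 of the 6 transcription genes were above 0. The N/C medians of these lists were -0.32 and -0.36. Of 10 histone chaperones 1 was called, RBBP4, a subunit of several histone-binding complexes. In the total fraction 0.363% of all genes were called lower for both shRNAs and 0.438% with TPR D. RBBP4 was at 150.5 to 217 FPKM in control total libraries, 106 to 145 with TPR A and 87.5 to 96.4 with TPR D, without overlap, and fell in the total fraction for both shRNAs (log2 change -0.77 ± 0.16 SE, adjusted p = 0.0185; 0.108 without control replicate 2) and with TPR D (-0.96 ± 0.18, adjusted p = 0.0117; 0.0474 without control replicate 2). The list's medians were -0.20, -0.14 and -0.34.

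The 21 S phase genes tested, such as those of the MCM helicase, had medians of -0.05 in the nuclear, -0.14 in the cytoplasmic/ER and -0.43 in the total fraction for both shRNAs. Limma called 0 of them, with 5 lower in the total fraction at an unadjusted p under 0.05. For such unadjusted counts no share of all genes is given here, so they cannot be set against a background. In the total libraries their median log2 distance from the control means was 0.01, 0.71 and -0.72 in control replicates 1 to 3, -0.29, -0.33 and -0.63 with TPR A and -0.42, -0.32 and -0.67 with TPR D, so replicate 3 was lowest in each group, as it was for the histone genes. Without control replicate 2 the total median was -0.14. The 11 replication-independent histones, among them H2AZ1, H3-3A and H3-3B, whose mRNAs carry poly(A) tails, had medians of -0.02, -0.29 and -0.31, and limma called 0, with 2 lower in the cytoplasmic/ER fraction at an unadjusted p under 0.05. Their N/C log2 change was above 0 for 11 of 11, with a median of 0.20 against 0.86 for the replication-dependent genes, and the difference was not tested.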

How the data were processed

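Poly(A)+ RNA of 27 U2OS libraries (3 shRNAs, 3 fractions, 3 replicates) was analysed from the deposited FPKM values, which the authors made with Salmon on GENCODE release 19 transcripts (hg19) and tximport. The submitters' notes also name DESeq2; no tool version is given in the sources used here, and the authors' fold changes were not used. FPKM values were divided by a median-of-ratios factor (0.954 to 1.06) and tested as log2(FPKM + 0.1), a scale that understates changes of low genes. The test was limma 3.58.1 in R 4.3.3 with a trend, on 14611 genes with a mean above 1 FPKM outside the mitochondrial genome, all 27 libraries in 9 groups, and Benjamini-Hochberg adjustment with a threshold of 0.05. Single genes also had a 2-sided exact permutation test over 84 ways to choose 3 of 9 cultures; for 1 shRNA, 3 against 3, the smallest p is 0.1. The scripts were tested on simulated data.

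Every gene above 1 FPKM is named. Values in every sample are given for the highest gene of each subfamily, H1-1, each gene called in a TPR contrast, and the genes with the largest and smallest N/C change. The members and lists were chosen with earlier results of these data known. Same-numbered cultures were checked for pairing by the correlation of their deviations from group means. All 3 pairs were over 0.1 for control and TPR A in total (0.137 to 0.324) and, between the TPR shRNAs, in the nuclear (0.131 to 0.266) and cytoplasmic/ER fractions (0.398 to 0.597), and not elsewhere. Stem-loops were read from GRCh37 with GENCODE release 44 (Python 3.11.15, pandas 2.3.3). Alternatives covered scaling, pseudocount, minimum level, block, model, and left-out cultures. Shares of all genes are given for the main test and for groups without overlap. They are not given for counts at an unadjusted p, for permutation tests or for the alternatives.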

Additional observations from a re-analysis of the deposited data

Results flagged for a closer look

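H2AC6, which encodes a core histone H2A, differed between the TPR shRNAs. It was higher with TPR A than with TPR D by a log2 of 1.504 ± 0.27 SE in the cytoplasmic/ER fraction (limma adjusted p = 0.0106) and by 1.48 ± 0.27 in the total fraction (limma adjusted p = 0.0152), in each case with 3 of 3 TPR A cultures above 3 of 3 TPR D cultures. It remained called in 7 of 9 fits that left out a culture in the cytoplasmic/ER fraction and in 4 of 9 in the total fraction. The difference was 1.63 within replicate 1 and 1.44 within replicates 2 and 3 in the cytoplasmic/ER fraction, and 1.87 and 1.29 in the total fraction. The contrast was added after the data were seen.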

How the results depend on the processing

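Counts below are of the 22 histone genes called, and medians are of their log2 change. The shares of all genes called under these alternatives are not given here. The counts therefore show how the calls moved and cannot be set against a background. With the replicate number as a block, calls were 9 (nuclear TPR A), 8 (nuclear TPR D), 10 (nuclear, both shRNAs), 1 (cytoplasmic/ER TPR D), 2 (cytoplasmic/ER, both), 7 (total TPR A), 2 (total TPR D), 7 (N/C in control) and 2 for TPR A minus TPR D in each fraction. With the culture as a block 8 were called for N/C in control. The block changed no call of the N/C fold change. Within replicates 2 and 3 alone, calls were 2 for N/C in control and 0 for nuclear TPR A, TPR D and both, cytoplasmic/ER TPR A and both, total TPR A and both, and TPR A minus TPR D in the cytoplasmic/ER and total fractions, with fewer samples in the fit. With only the compared fraction in the model, calls were 1 for nuclear TPR A and 0 for nuclear TPR D and both, cytoplasmic/ER TPR A and both, total TPR A and both, and TPR A minus TPR D in the cytoplasmic/ER and total fractions. With only control and 1 shRNA in the model nuclear TPR D had 1 call. With no minimum FPKM calls were 3 for nuclear TPR A and 1 for total, both, and medians 0.44 (total TPR A) and 0.70 (N/C TPR D). With FPKM as deposited total, both, had 1 call. The cause of these moves was not tested.

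Medians were 1.64 for nuclear TPR D in genes ending at the stem-loop and 0.25 for N/C TPR A in genes with an extended transcript. Within replicate 1 they were -0.50 (cytoplasmic/ER TPR D), -0.12 (cytoplasmic/ER, both), 1.78 (N/C TPR D) and -0.80 (N/C in control), within replicates 2 and 3 0.58 (N/C TPR D), and above 5 FPKM -0.79 (N/C in control). For both shRNAs, replicates 2 and 3 alone reversed H2AC13 (0.52), H2BC11 (0.18) and H4C8 (0.28) in the cytoplasmic/ER fraction, H2AC13 (-0.056) and H2AC20 (-0.33) in the total fraction, and H2AC13 (-0.24), H2AC21 (-1.15) and H4C16 (-0.10) for N/C. A pseudocount of 0.01 reversed H2AC21 for N/C (-0.53).

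Leaving out each culture in turn gave calls of 2 to 5 (nuclear TPR A), 0 to 4 (nuclear TPR D), 2 to 6 (nuclear, both), 0 to 2 (cytoplasmic/ER TPR A), 0 to 1 (cytoplasmic/ER, both), 0 to 4 (total TPR A), 0 to 1 (total TPR D), 0 to 3 (total, both), 1 to 4 (N/C in control) and 0 to 1 (TPR A minus TPR D, cytoplasmic/ER and total), and an N/C TPR D median of 0.79 to 1.27. Single genes whose sign changed were, in the cytoplasmic/ER fraction, H1-1 (-0.55 to 1.89), H2AC11 (-0.013 to 0.21), H2AC13 (-1.08 to 0.24), H2AC20 (-0.30 to 0.075), H2BC11 (-0.38 to 0.040), H2BC12 (-0.10 to 0.42), H4C16 (-0.021 to 0.55), H4C3 (-0.86 to 0.052) and H4C8 (-0.32 to 0.12), in the total fraction H2AC13 (-0.048 to 0.47), H2BC12 (-0.029 to 0.58) and H4C3 (-0.13 to 0.85), and for N/C H2AC21 (-0.76 to 1.88) and H4C16 (-0.11 to 0.89). H2BC4 and H2BC5 were called in the nucleus for both shRNAs in 9 of 9 such fits, H2AC6 in 8, H4C8 in 7, and H3C4 and H1-4 in 3 each. In the total fraction H2BC5 was called in 8 of 9, H2AC6 in 2 and H2BC4 in 1, and H2BC5 in the cytoplasmic/ER fraction in 2. H1-1 had a median of 20.1 estimated reads per library, H1-4 105 and H4C3 173, and the part of depth in these changes was not tested.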
